A study of Mus musculus with 16 samples.

Results

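The 10 genes described here mark the subsets of dendritic cells, the antigen-presenting cells of the gut wall. They are Flt3 and Zbtb46 of conventional dendritic cells (cDC) in general, Irf8, Batf3, Xcr1 and Clec9a of type 1 cells (cDC1), Cd209a and Clec10a of type 2 cells (cDC2), Ccr7 of migratory cells and Siglech of plasmacytoid cells. They were taken by symbol from the 35647 gene identifiers of the deposited count table, of which 35105 had a symbol, and each of the 10 had its own row. RNA had been sequenced from lamina propria immune cells, the cells under the gut epithelium, of mice labelled wild-type that were born germ-free and then carried *Bifidobacterium breve*, a gut commensal, as their only bacterium for 5 weeks. The bacterium was either the Δchat strain, which makes no acetylcholine, or the wild-type (WT) form of the species, and each was given to 4 mice. Ileum and colon were taken, so the 16 libraries formed 4 groups of 4 (ileum Δchat, ileum WT, colon Δchat and colon WT). Every mouse carried *B. breve*, and germ-free mice were not analysed here. The age of the mice is not given in the sources used here.

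Dendritic cells carry antigen from the tissue to lymph nodes and set the kind of T cell response that follows there. The cytokine FLT3 ligand drives their growth through the receptor Flt3. Under the transcription factors Irf8 and Batf3 a precursor becomes a cDC1, which takes up dead cells through Clec9a, follows the chemokine XCL1 through Xcr1 and presents antigen to CD8 T cells, whereas cDC2 mainly present to CD4 T cells. A dendritic cell that leaves the tissue turns on Ccr7, the receptor for CCL19 and CCL21. Plasmacytoid cells, which carry Siglech, are specialised for type I interferon. Several of these genes are not private to dendritic cells, since B cells also use Irf8 and Ccr7, and endothelium also uses Zbtb46.

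The promoters of 8 of the 10 genes were present in the RefSeq table of the mouse build GRCm38.p6, from 250 bases before to 50 bases after the annotated start. They were searched on both strands for the letters TGANTCA (N, any base) of AP-1, the family of Batf3, and for CAGGTG, an E-box of the kind bound by Tcf4, the main factor of plasmacytoid cells. The annotated promoter windows of Zbtb46, the gene that held both, and of Siglech, the plasmacytoid gene, are shown in the direction of the gene, with the matches in capitals. That of Zbtb46 is at chr2:181424339-181424638 on the minus strand and that of Siglech at chr7:55767934-55768233 on the plus strand.
Zbtb46: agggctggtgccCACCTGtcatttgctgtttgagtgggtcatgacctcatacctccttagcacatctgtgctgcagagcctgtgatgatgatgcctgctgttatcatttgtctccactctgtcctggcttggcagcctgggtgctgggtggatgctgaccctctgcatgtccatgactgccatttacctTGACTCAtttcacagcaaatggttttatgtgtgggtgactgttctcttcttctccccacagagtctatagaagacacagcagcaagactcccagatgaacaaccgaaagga
Siglech: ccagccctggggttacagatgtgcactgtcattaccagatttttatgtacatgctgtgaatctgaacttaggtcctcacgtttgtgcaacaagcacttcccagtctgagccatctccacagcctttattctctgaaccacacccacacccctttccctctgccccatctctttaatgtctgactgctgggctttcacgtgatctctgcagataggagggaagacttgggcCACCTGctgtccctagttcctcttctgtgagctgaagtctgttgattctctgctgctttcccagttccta
The AP-1 match of Zbtb46, TGACTCA, began at position -61 from the annotated start and its E-box, read as CACCTG, at -238. The bases just before that start are rich in c and t and end in cag, the form of the end of an intron. Whether this window of Zbtb46 acts as a promoter was not tested. The E-box of Siglech, also read as CACCTG, began at -20. Of the other genes, 1 of the 2 annotated Irf8 promoters held CAGGTG, at -205. The 2 motifs do not overlap in these windows. Of all 32851 promoters in the table, 7.81% held the AP-1 letters and 20.2% the E-box letters, against 1 and 3 of the 8 genes, and a match is a description and not a site.

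Levels are counts scaled to a library of 1 M (CPM; M, mega), with the composition of the 16 libraries evened out. Their totals ran from 15.9 to 23.6 M estimated counts. Each of the 10 genes had counts in every library, the lowest being 31 for Siglech. The libraries did not hold dendritic cells alone. Summed over 10 macrophage genes (Csf1r, C1qa and C1qb the most abundant), the level was between 804 and 3558 with a median of 1339.6 in ileum Δchat, between 1169 and 1651 with a median of 1569 in ileum WT, between 369 and 769 with a median of 528 in colon Δchat and between 281 and 390.3 with a median of 323 CPM in colon WT. Summed over 9 B cell genes (Cd79a and Pax5 among the most abundant), it was between 354 and 1842 with a median of 976 in ileum Δchat, between 546 and 1142 with a median of 673 in ileum WT, between 1484 and 2620.1 with a median of 2174 in colon Δchat and between 2201 and 3979 with a median of 2859 CPM in colon WT. A pair of libraries stood apart. Colon Δchat replicate 3 had the highest epithelial sum (2682 CPM over 8 genes, against 38.4 to 167 CPM in colon WT), and ileum Δchat replicate 2 had the highest macrophage sum. In bulk RNA, fewer cells of a type and less RNA per cell cannot be told apart.

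**Figure D1:**
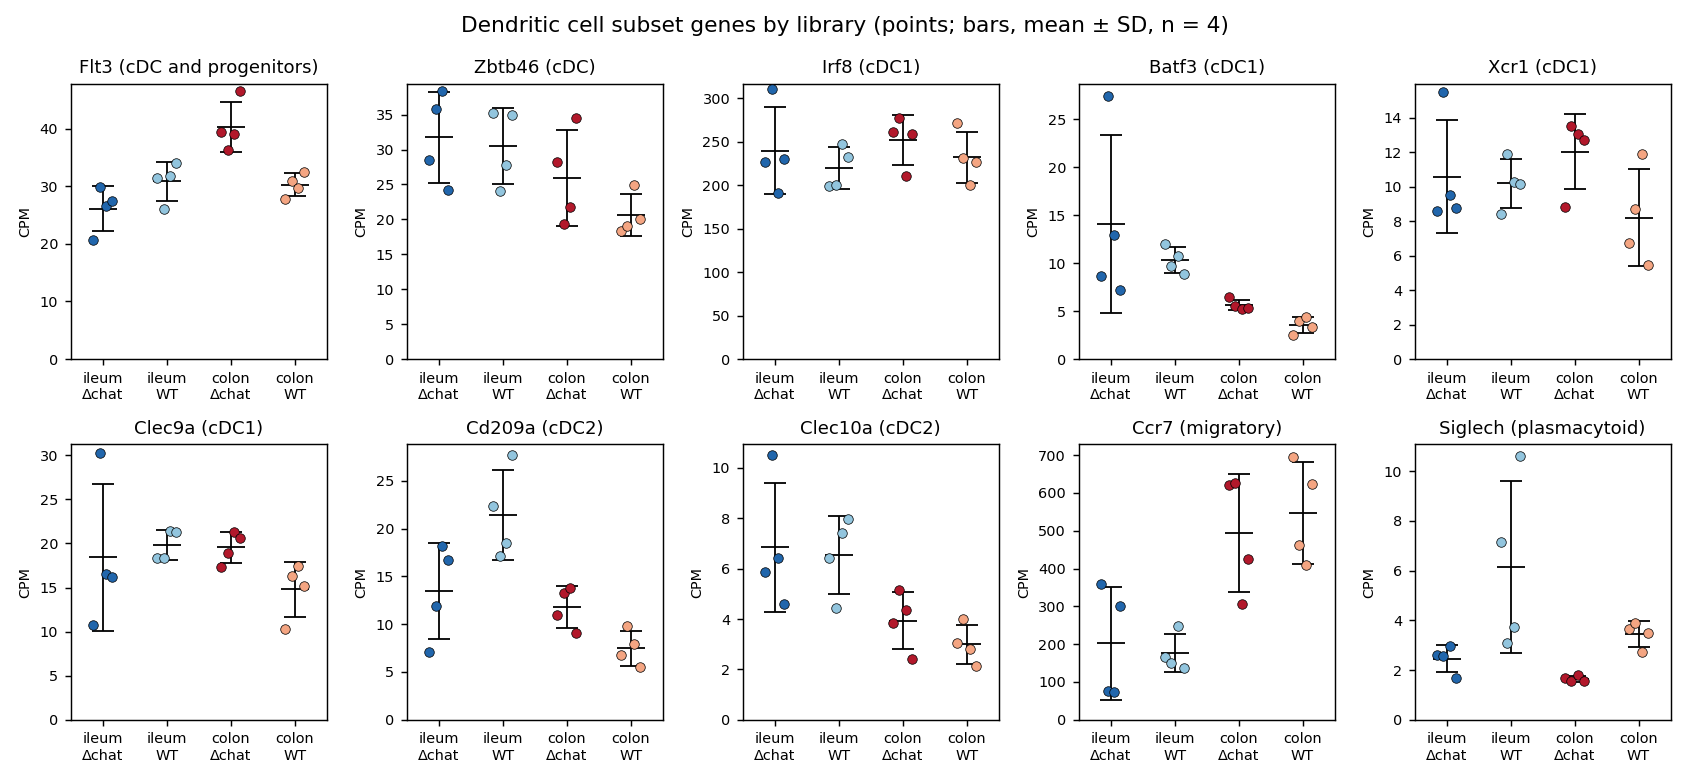
CPM of each of the 10 genes (vertical axes, from 0) in the 4 groups (horizontal axis), with 1 point per library and bars for mean ± SD of 4 libraries. Flt3 is highest in colon Δchat, at 36.3 to 46.5 CPM, and the mean of Siglech is lowest there, with 1.55 to 1.79 CPM. Ccr7 has 137 to 249 CPM in ileum WT and 409 to 696 CPM in colon WT, and 1 ileum Δchat library is the highest for Batf3, Clec9a, Clec10a, Irf8 and Xcr1.

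The comparison of Δchat with WT asked whether dendritic cell genes differ when the bacterium makes no acetylcholine. By edgeR's quasi-likelihood test with Benjamini-Hochberg adjustment over all genes (adjusted p under 0.05), 0 of the 10 genes passed in ileum, where 0.0207% of 14496 tested genes did, and 0 of 10 passed in colon, where 0.00682% of 14660 did. At an unadjusted p under 0.05 there were 2 of 10 in ileum (10.9% of all genes), both lower in Δchat (6.1% of all genes were), and 5 of 10 in colon (13.3% of all genes), of which 4 were higher and 1 was lower. DESeq2 called 0 of 10 in ileum, where it called 1.7% of 21057 genes, and 2 of 10 in colon, Flt3 and Siglech, where it called 1.42% of 21275. The DESeq2 shares given here and below are over every gene with a count, including those of low count that edgeR left out. Genes without an adjusted p count there as not called, so these shares are not like for like with those of edgeR. The median log2 fold change of the 10 genes was 0.031 in ileum and 0.41 in colon, against 0.015 and 0.0054 for all genes tested there. In colon 8 of the 10 lay above 0, where 51% of all genes did.

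Flt3, the growth factor receptor shared by dendritic cells and their precursors, had 39.5, 36.3, 39.1 and 46.5 CPM in colon Δchat, against 27.9, 31.0, 29.7 and 32.6 CPM in colon WT. Each colon Δchat library lay above each colon WT library, as it did for 3.72% of all genes. The log2 fold change was 0.43 ± 0.097 (edgeR adjusted p = 0.241; DESeq2 adjusted p = 0.0242), so the call depended on the tool. In ileum Flt3 had 20.6, 29.9, 26.5 and 27.5 CPM in Δchat and 31.4, 26.1, 31.8 and 34.1 CPM in WT. Those groups overlapped, and the log2 fold change of -0.26 ± 0.13 lay on the other side of 0 (edgeR adjusted p = 0.503). Flt3l, which encodes the ligand and is named for that role outside the rule, had log2 fold changes of -0.12 ± 0.11 in ileum and 0.035 ± 0.18 in colon (edgeR adjusted p = 0.706 and 0.948).

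Zbtb46, a transcription factor of conventional dendritic cells, had 28.5, 35.8, 38.4 and 24.2 CPM in ileum Δchat and 35.2, 24.1, 27.8 and 34.9 CPM in ileum WT. In colon it had 28.2, 19.3, 21.7 and 34.5 CPM in Δchat and 18.4, 19.0, 24.96 and 20.1 CPM in WT. The groups overlapped in both tissues. The log2 fold change was 0.036 ± 0.18 in ileum (edgeR adjusted p = 0.960) and 0.34 ± 0.19 in colon (edgeR adjusted p = 0.457).

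Among the cDC1 genes, Batf3, the AP-1 factor that cDC1 need to form, had 6.44, 5.49, 5.26 and 5.34 CPM in colon Δchat, against 2.52, 3.95, 4.35 and 3.39 CPM in colon WT. These groups did not overlap, as for 3.72% of all genes in this direction, and the log2 fold change was 0.67 ± 0.20 (edgeR adjusted p = 0.313). In ileum Batf3 had 8.63, 27.5, 12.9 and 7.20 CPM in Δchat and 12.0, 9.66, 10.8 and 8.85 CPM in WT, so that replicate 2 alone set the Δchat mean above the WT mean. The ileum log2 fold change of 0.42 ± 0.39 (edgeR adjusted p = 0.721) was -0.11 ± 0.22 without that library. The dead-cell receptor Clec9a was likewise highest in ileum Δchat replicate 2, with 10.8, 30.2, 16.5 and 16.2 CPM in ileum Δchat, 18.3, 18.3, 21.4 and 21.3 CPM in ileum WT, 17.4, 18.9, 21.3 and 20.6 CPM in colon Δchat and 10.3, 16.3, 17.4 and 15.1 CPM in colon WT. Its lowest colon Δchat library and its highest colon WT library were nearly level, and the log2 fold change was 0.41 ± 0.17 in colon (edgeR adjusted p = 0.343) and -0.13 ± 0.27 in ileum (edgeR adjusted p = 0.888). Without ileum Δchat replicate 2 the ileum value was -0.46 ± 0.17 (edgeR adjusted p = 0.322).

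Xcr1, the receptor for XCL1, had 8.57, 15.5, 9.51 and 8.74 CPM in ileum Δchat and 8.40, 11.9, 10.3 and 10.2 CPM in ileum WT. In colon it had 8.82, 13.5, 13.1 and 12.7 CPM in Δchat and 6.73, 8.71, 11.9 and 5.47 CPM in WT. Here 3 colon Δchat libraries lay above all 4 of WT, and the fourth lay inside the WT range. The log2 fold change was 0.56 ± 0.25 in colon (edgeR adjusted p = 0.378) and 0.026 ± 0.21 in ileum (edgeR adjusted p = 0.976). Irf8, which B cells and other myeloid cells use as well, had 227, 311, 191 and 230.2 CPM in ileum Δchat, 199, 200.2, 247 and 233 CPM in ileum WT, 261, 277, 210.4 and 259 CPM in colon Δchat and 271, 231, 199.7 and 226 CPM in colon WT. All 4 groups overlapped, with log2 fold changes of 0.10 ± 0.14 in ileum and 0.13 ± 0.11 in colon (edgeR adjusted p = 0.829 and 0.641).

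Of the cDC2 genes, the C-type lectin Cd209a had 7.13, 11.9, 18.2 and 16.7 CPM in ileum Δchat, against 22.4, 17.2, 18.5 and 27.7 CPM in ileum WT. In colon it had 10.99, 13.3, 13.8 and 9.12 CPM in Δchat, against 6.73, 9.79, 7.95 and 5.47 CPM in WT. The fold change had opposite signs in the tissues, with 3 of 4 ileum Δchat libraries below all of WT and 3 of 4 colon Δchat libraries above all of WT. On the log2 scale it was -0.68 ± 0.29 in ileum (edgeR adjusted p = 0.445) and 0.67 ± 0.21 in colon (edgeR adjusted p = 0.319). Clec10a, a lectin that binds galactose sugars, had 5.89, 10.5, 6.43 and 4.59 CPM in ileum Δchat, 6.43, 4.44, 7.40 and 7.96 CPM in ileum WT, 3.84, 5.14, 4.34 and 2.42 CPM in colon Δchat and 3.07, 4.00, 2.80 and 2.14 CPM in colon WT. Its strain groups overlapped in both tissues, and the log2 fold change was 0.036 ± 0.27 in ileum and 0.41 ± 0.28 in colon (edgeR adjusted p = 0.975 and 0.553). Cd209a belongs to a family of similar genes and Clec10a resembles Mgl2, so part of their reads may have been shared out among relatives by the estimation.

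Ccr7 had 359, 75.4, 72.7 and 302 CPM in ileum Δchat, 166, 150.2, 249 and 137 CPM in ileum WT, 620.0, 627, 305 and 426 CPM in colon Δchat and 696, 461, 409 and 623 CPM in colon WT. Its ileum Δchat libraries split, with replicates 1 and 4 above all of ileum WT and replicates 2 and 3 below all of it. The log2 fold change was 0.18 ± 0.55 in ileum (edgeR adjusted p = 0.932) and -0.14 ± 0.25 in colon (edgeR adjusted p = 0.834).

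Siglech, the lectin of plasmacytoid cells, had 2.62, 2.56, 2.96 and 1.67 CPM in ileum Δchat, against 7.14, 3.09, 3.72 and 10.6 CPM in ileum WT. In colon it had 1.68, 1.55, 1.79 and 1.56 CPM in Δchat, against 3.67, 3.91, 2.72 and 3.498 CPM in WT. Each Δchat library lay below each WT library of its tissue, as it did for 3.34% of all genes in ileum and 3.59% in colon. The log2 fold change was -1.35 ± 0.41 in ileum (edgeR adjusted p = 0.287; DESeq2 adjusted p = 0.0515) and -1.05 ± 0.20 in colon (edgeR adjusted p = 0.178; DESeq2 adjusted p = 0.00333). These values rest on 31 to 191 counts per library. Bst2, another gene of plasmacytoid cells that interferon also induces widely, had log2 fold changes of -0.31 ± 0.12 in ileum and -0.74 ± 0.13 in colon (edgeR adjusted p = 0.383 and 0.155).

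**Figure D2:**
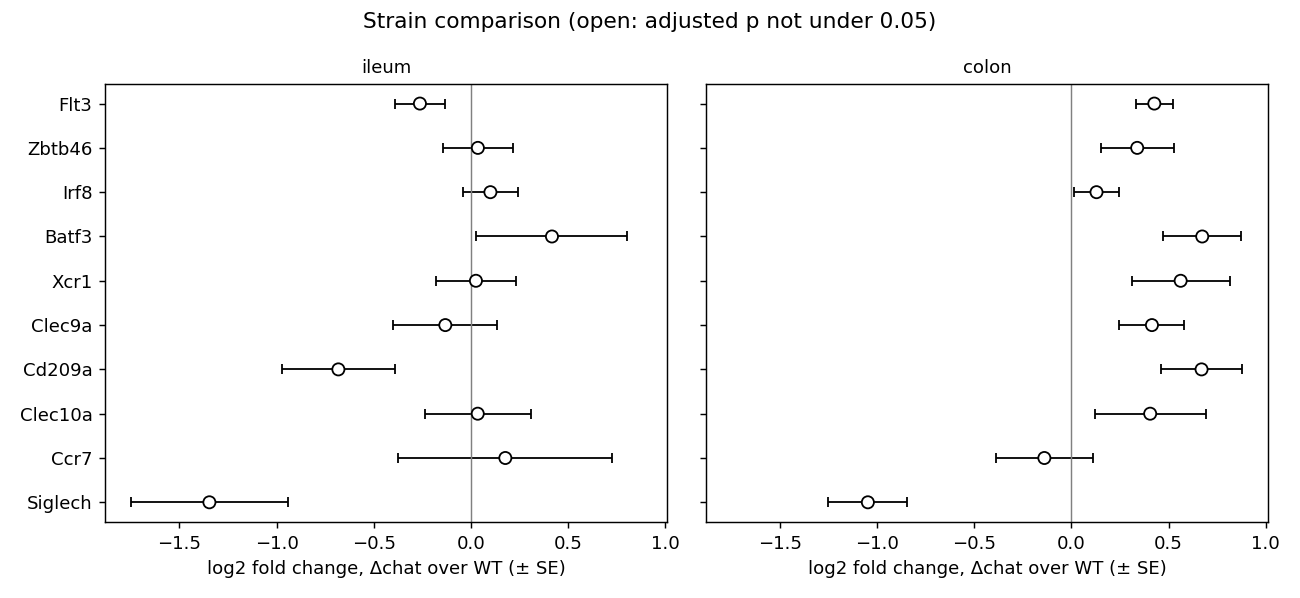
Log2 fold change of Δchat over WT (horizontal axis) of the 10 genes (vertical axis) in ileum and in colon, with bars for ± SE of the edgeR fit. All points are open, since 0 of 10 passed an adjusted p of 0.05 in either tissue, and Siglech lies furthest below 0 in both, at -1.35 in ileum and -1.05 in colon.

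The other genes of the dendritic cell programmes were described by lists. In both tissues 0 passed the edgeR test, of 72 tested in ileum and of 71 in colon (DESeq2 called 4 and 5 of 75, where it called 1.7% and 1.42% of all genes). In colon, 8 of 14 genes of the cDC1 programme were higher and 1 was lower in Δchat at an unadjusted p under 0.05, against 7.99% higher and 5.31% lower of all genes, and the median log2 fold change of the list was 0.48. Among those 8, chosen here after their values were seen, were Naaa, an enzyme abundant in cDC1 (0.52 ± 0.13; edgeR adjusted p = 0.297), and Tlr3, the sensor of double-stranded RNA (0.54 ± 0.16; edgeR adjusted p = 0.313). The gene that was lower, Gcsam (-0.92 ± 0.21; edgeR adjusted p = 0.241), is on the germinal centre B cell list too, of which all 6 genes were lower at that threshold. In ileum the cDC1 list had 0 higher and 1 lower gene, against 4.81% higher and 6.1% lower of all genes, and a median of -0.14. The most abundant genes of the list, Wdfy4 (needed for cross-presentation) and Ppt1, had log2 fold changes of -0.17 ± 0.16 and -0.11 ± 0.17 in ileum and of -0.10 ± 0.16 and 0.28 ± 0.10 in colon.

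The cDC2 list had 0 higher and 2 lower of 11 tested genes in ileum at that threshold, and 3 higher and 0 lower of 11 in colon, with medians of 0.00015 and 0.24. Its most abundant genes were the transcription factors Klf4, with log2 fold changes of -0.71 ± 0.17 in ileum and 0.28 ± 0.22 in colon (edgeR adjusted p = 0.200 and 0.594), and Irf4, with 0.0090 ± 0.30 in ileum and -0.13 ± 0.22 in colon. The antigen presentation genes Cd74 and H2-Ab1, the most abundant of the list shared by conventional dendritic cells, were close to 0, with log2 fold changes of 0.039 ± 0.18 and 0.079 ± 0.18 in ileum and of -0.082 ± 0.15 and -0.060 ± 0.15 in colon. The list of migratory and mature cells had a median of -0.22 over 16 genes in ileum and of -0.051 in colon. Its most abundant genes, the activation marker Cd83 and Cd274, which encodes the checkpoint ligand PD-L1, had log2 fold changes of -0.079 ± 0.20 and -0.13 ± 0.12 in ileum and of -0.039 ± 0.17 and -0.23 ± 0.15 in colon. The plasmacytoid list had 0 higher and 2 lower of 11 genes in ileum (median -0.14), and 1 higher and 4 lower of 10 in colon (median -0.43). The higher one in colon, named after its value was seen, was Klk1 (4.36 ± 1.31; edgeR adjusted p = 0.319), which gut epithelium also makes. It had 11.03, 11.3, 239 and 15.3 CPM in colon Δchat and 1.20, 3.68, 6.23 and 2.54 CPM in colon WT, and without the epithelium-rich replicate 3 its log2 fold change was 1.86 ± 0.44 (edgeR adjusted p = 0.244). Tcf4 itself had -0.093 ± 0.093 in ileum and -0.19 ± 0.091 in colon. Of the 10 genes of this list tested in colon, 8 lay below 0. Among them, named outside the rule, Spib averaged 76.6 CPM in colon Δchat and 116 CPM in colon WT. Ly6d averaged 82.0 and 119 CPM there, Pacsin1 9.29 and 15.2 CPM, and the B cell gene Pax5 360.1 and 479 CPM. The part of B cells in the plasmacytoid list was not tested. The GM-CSF receptor chains Csf2rb and Csf2ra, most abundant among ligands and receptors, had log2 fold changes of -0.64 ± 0.26 and -0.045 ± 0.31 in ileum and of 0.14 ± 0.17 and 0.42 ± 0.12 in colon (edgeR adjusted p between 0.313 and 0.972).

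Markers of other cells moved alongside in colon. All 10 macrophage genes were higher in colon Δchat at an unadjusted p under 0.05, with a median log2 fold change of 0.79, while 0 passed the edgeR adjusted test. The 9 B cell genes were all below 0 (median -0.47; 3 of 9 lower at that threshold), and the 8 epithelial genes were all higher at it (median 3.12). Without colon Δchat replicate 3, chosen after seeing the data, 3 of 8 epithelial genes (median 1.09), 10 of 10 macrophage genes (median 0.84) and 1 of 9 B cell genes (median -0.39) reached that threshold, and the cDC1 list had 7 of 14 genes higher and 1 lower (median 0.46). In ileum 0 of the 10 macrophage, 8 epithelial, 9 B cell and 8 stromal genes reached it, with 9 of 10, 8 of 8, 9 of 9 and 3 of 8 above 0. The stromal genes (Col3a1, Col1a2 and Col1a1 the most abundant) had a median log2 fold change of -0.99 in ileum, and their summed level was between 2044 and 7345 with a median of 2618 in ileum Δchat and between 4662 and 7228 with a median of 6285 CPM in ileum WT. The germinal centre genes were below 0 in 6 of 6 (median -0.63), with 2 lower at that threshold. Within groups, Cd209a had an r of 0.64 with Col1a1 over the 16 libraries. The part of these cells in the values of the dendritic cell genes was not tested. Without the epithelium-rich colon library, the colon log2 fold change was 0.43 ± 0.10 for Flt3, 0.69 ± 0.22 for Batf3, 0.57 ± 0.22 for Cd209a and -1.11 ± 0.22 for Siglech.

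**Figure D3:**
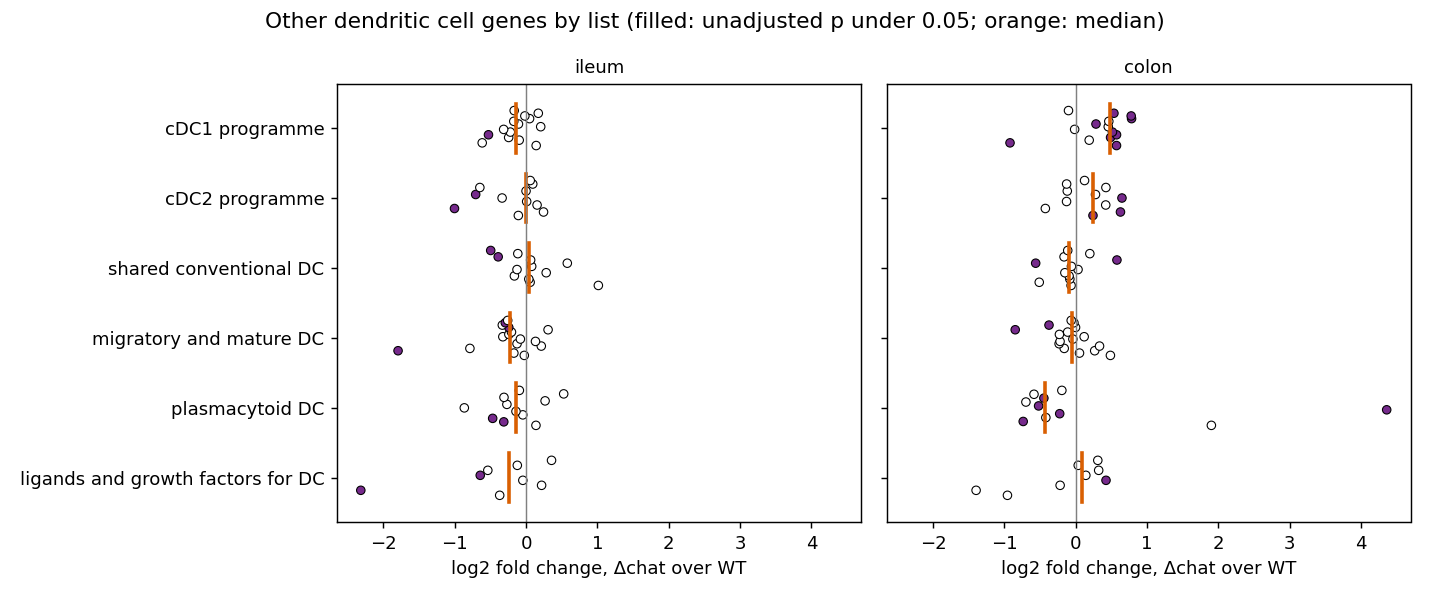
Log2 fold change of Δchat over WT (horizontal axis) of each tested gene of 6 dendritic cell lists (vertical axis) in ileum and in colon. A point is a gene, filled at an unadjusted p under 0.05, and the orange line is the median of the list. The cDC1 median is -0.14 in ileum and 0.48 in colon, and the plasmacytoid median is -0.14 in ileum and -0.43 in colon.

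The comparison of ileum with colon was made within each strain, on the levels given above. In mice with Δchat *B. breve*, 2 of the 10 genes passed the edgeR test (1 higher and 1 lower in ileum), where 13.3% of 15198 tested genes did. In mice with WT *B. breve*, 5 of 10 passed (4 higher and 1 lower), where 28.8% of the same genes did. DESeq2 called 3 of 10 in Δchat mice, where it called 12.2% of all genes, and 6 of 10 in WT mice, where it called 21.7%. The tissues differed in their other cells as well, since 9 of 10 macrophage genes were higher in ileum in either strain, and B cell genes were lower in ileum, 1 of 9 in Δchat and 9 of 9 in WT.

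Batf3 was higher in ileum in both strains. It averaged 14.1 ± 9.26 CPM in ileum and 5.63 ± 0.547 CPM in colon of Δchat mice (SD, n = 4), and 10.3 ± 1.36 CPM in ileum and 3.55 ± 0.796 CPM in colon of WT mice. Every mouse had more in ileum, and the groups did not overlap in either strain, as for 9.38% of all genes in this direction in Δchat and 16.3% in WT. The log2 fold change was 1.32 ± 0.33 in Δchat (edgeR adjusted p = 0.0156) and 1.53 ± 0.33 in WT (edgeR adjusted p = 0.00500). In Δchat it was 0.78 ± 0.22 without ileum replicate 2 (edgeR adjusted p = 0.0404), and with a block for the mouse it was not called (edgeR adjusted p = 0.0535). The other cDC1 genes did not pass in either strain. Clec9a had a log2 fold change of -0.085 ± 0.24 in Δchat and 0.42 ± 0.24 in WT (edgeR adjusted p = 0.845 and 0.199), Xcr1 of -0.19 ± 0.24 and 0.31 ± 0.24 (0.646 and 0.365), and Irf8 of -0.070 ± 0.14 and -0.079 ± 0.14 (0.782 and 0.711).

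Flt3 was lower in ileum of Δchat mice, at 26.1 ± 3.95 CPM in ileum and 40.4 ± 4.35 CPM in colon (SD, n = 4). Every Δchat mouse had less in ileum, the groups did not overlap (6.09% of all genes were lower without overlap), and the log2 fold change was -0.63 ± 0.12 (edgeR adjusted p = 0.00307), a call that held in all 14 alternatives. In WT mice Flt3 averaged 30.9 ± 3.38 CPM in ileum and 30.3 ± 1.99 CPM in colon, with a log2 fold change of 0.028 ± 0.12 (edgeR adjusted p = 0.879). The mean was therefore highest in colon Δchat, with the other 3 groups between 26.1 and 30.9 CPM and overlapping. Zbtb46 was higher in ileum of WT mice, at 30.5 ± 5.48 CPM in ileum and 20.6 ± 2.98 CPM in colon (SD, n = 4). Its log2 fold change of 0.56 ± 0.19 passed narrowly (edgeR adjusted p = 0.0423), and it was not called with a block for the mouse (edgeR adjusted p = 0.112) nor without the filter on low counts (0.0515), nor without colon WT replicate 1, 2 or 4 or ileum WT replicate 1 or 4 (0.0861 to 0.103). In Δchat mice it was 0.29 ± 0.19 (edgeR adjusted p = 0.339).

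Both cDC2 genes were higher in ileum of WT mice, as were 9 of 10 macrophage genes. Cd209a averaged 21.4 ± 4.73 CPM in ileum and 7.49 ± 1.84 CPM in colon (SD, n = 4), with a log2 fold change of 1.51 ± 0.27 (edgeR adjusted p = 0.00153). Clec10a averaged 6.56 ± 1.55 CPM in ileum and 3.001 ± 0.769 CPM in colon, with a log2 fold change of 1.12 ± 0.29 (edgeR adjusted p = 0.0121). For both, all 4 WT mice had more in ileum and the call held in all 14 alternatives. The groups did not overlap, as for 16.3% of all genes in this direction. In Δchat mice Cd209a averaged 13.5 ± 5.00 CPM in ileum and 11.8 ± 2.16 CPM in colon (SD, n = 4), with more in ileum in 2 of 4 mice and a log2 fold change of 0.19 ± 0.26 (edgeR adjusted p = 0.659). Clec10a was 0.80 ± 0.29 there, with more in ileum in 4 of 4 mice (edgeR adjusted p = 0.0829).

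Ccr7 was lower in ileum of WT mice, at 176 ± 50.5 CPM in ileum and 547 ± 135 CPM in colon (SD, n = 4), with a log2 fold change of -1.64 ± 0.47 (edgeR adjusted p = 0.0191). The groups did not overlap, as for 18.6% of all genes in this direction. The call was lost without colon WT replicate 1 or ileum WT replicate 2 or 4 (0.0514 to 0.0591). In Δchat mice it averaged 202 ± 149.8 CPM in ileum and 495 ± 157 CPM in colon, was lower in ileum in 4 of 4 mice, and had a log2 fold change of -1.29 ± 0.46 that did not pass (edgeR adjusted p = 0.0820). With a block for the mouse this was -1.59 ± 0.43 (edgeR adjusted p = 0.0463), without ileum Δchat replicate 1 it was -1.71 ± 0.46 (edgeR adjusted p = 0.0277), and DESeq2 called it as well, but the other 11 of 14 alternatives did not. Without ileum Δchat replicate 2 or 3 it was -1.02 ± 0.43 and -1.02 ± 0.43 (edgeR adjusted p = 0.176 and 0.148). Siglech was 0.57 ± 0.33 in Δchat and 0.83 ± 0.32 in WT (edgeR adjusted p = 0.273 and 0.0633), and in WT it was called by DESeq2 (0.0417) and without ileum WT replicate 2 or 3 (0.0213 and 0.0314), 3 of 14 alternatives. Without ileum WT replicate 4 it was 0.47 ± 0.28 (edgeR adjusted p = 0.256).

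**Figure D4:**
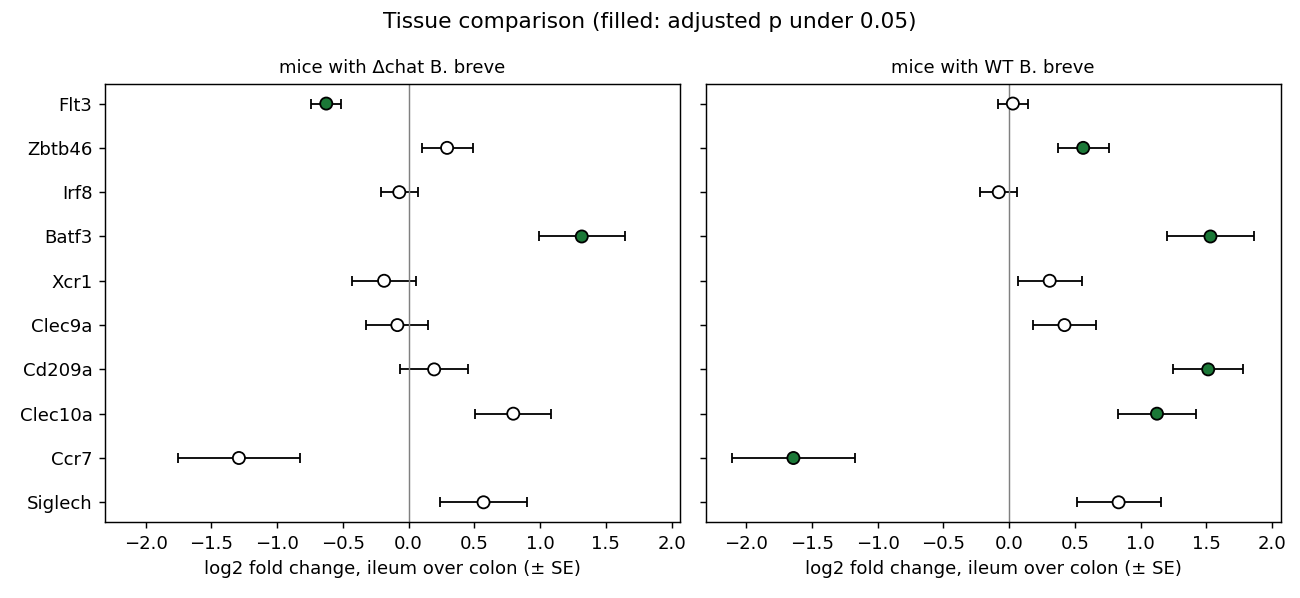
Log2 fold change of ileum over colon (horizontal axis) of the 10 genes (vertical axis) in mice with Δchat and with WT *B. breve*, with bars for ± SE of the edgeR fit. Filled points passed an adjusted p of 0.05: Flt3 and Batf3 in Δchat, and Zbtb46, Batf3, Cd209a, Clec10a and Ccr7 in WT.

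Of the 72 other dendritic cell genes tested between tissues, 22 passed the edgeR test in Δchat mice (16 higher and 6 lower in ileum) and 36 in WT mice (26 higher and 10 lower), against 8.31% higher and 5.03% lower of all genes in Δchat and 13.7% higher and 15.1% lower in WT. In the cDC2 list, 5 of 11 rose and 1 fell in Δchat, and 7 rose and 1 fell in WT. They include Itgam, the CD11b integrin that macrophages also carry (log2 fold change 1.38 ± 0.25 in Δchat and 2.32 ± 0.26 in WT), and Mgl2, the lectin next of kin to Clec10a (1.38 ± 0.39 and 2.41 ± 0.40). Itgax, the CD11c integrin of the shared list, rose by 1.02 ± 0.27 in Δchat and 1.49 ± 0.28 in WT. That list had 1 gene that rose and 0 that fell of 12 in Δchat, and 2 that rose and 4 that fell in WT, among them Bcl11a (-1.86 ± 0.45) and Btla (-1.37 ± 0.34), both also genes of B cells. In the cDC1 list, 0 rose and 1 fell of 14 in Δchat, and 4 rose and 1 fell in WT. Wdfy4 was the one that fell (-0.85 ± 0.17 in Δchat and -0.82 ± 0.17 in WT), and Itgae, the CD103 integrin that T cells of the gut also carry, rose in WT (1.34 ± 0.21). Wdfy4 had 292, 223, 181 and 296 CPM in ileum Δchat, where the B cell gene Pax5 had 318, 58.8, 52.7 and 277 CPM. In WT mice Wdfy4 averaged 273 CPM in ileum and 482 CPM in colon, and Pax5 115 and 479 CPM. The part of B cells in Wdfy4 was not tested. In the list of migratory and mature cells, 4 of 16 rose and 2 fell in Δchat, and 5 rose and 2 fell in WT. The list median was 0.14 in Δchat and 0.25 in WT, with 10 of 16 genes above 0 in either strain. Among those that rose were Apol7c (1.81 ± 0.35 and 2.28 ± 0.35) and Serpinb6b (1.04 ± 0.13 and 1.27 ± 0.13). Il12b, named after its values were seen, averaged less in ileum, at 2.69 against 6.61 CPM in Δchat and 3.05 against 7.18 CPM in WT.

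Ccr9, a receptor for gut homing that plasmacytoid cells share with T cells and plasma cells of the small intestine, had the smallest p of its list, at 77.4, 82.3, 60.6 and 64.7 CPM in ileum Δchat, 83.0, 122, 88.0 and 93.6 CPM in ileum WT, 12.2, 8.77, 8.93 and 7.21 CPM in colon Δchat and 11.5, 10.5, 9.50 and 18.6 CPM in colon WT. Its log2 fold change was 2.94 ± 0.22 in Δchat and 2.95 ± 0.22 in WT (edgeR adjusted p = 6.43e-06 and 4.32e-06). Of the plasmacytoid list, 4 of 11 rose and 1 fell in Δchat, and 4 rose and 2 fell in WT. The list median was 0.026 in Δchat and 0.15 in WT, with 6 of 11 genes above 0 in either strain. The one that fell in Δchat, named after its value was seen, was Klk1 (-5.30 ± 1.11; edgeR adjusted p = 0.00718). Without the epithelium-rich colon library it was -2.85 ± 0.57 (edgeR adjusted p = 0.00767). Spib, named outside the rule as was Pacsin1, averaged 26.1 CPM in ileum and 116 CPM in colon of WT mice, and Pacsin1 5.98 and 15.2 CPM. The B cell gene Pax5 averaged 115 and 479 CPM there. In ileum Δchat Spib had 56.9, 15.9, 13.5 and 67.1 CPM and Pacsin1 11.7, 5.07, 3.30 and 9.43 CPM. Pax5 had 318, 58.8, 52.7 and 277 CPM in the same libraries. The part of B cells in Spib and Pacsin1 was not tested. Bst2 rose by 1.09 ± 0.12 in Δchat and 0.63 ± 0.12 in WT, and Irf7, a factor of the interferon response, rose in both strains (by 0.88 ± 0.12 in WT). Among ligands and growth factor receptors, Xcl1, whose product binds Xcr1, rose by 0.69 ± 0.17 in Δchat and 0.61 ± 0.17 in WT, and Csf2ra, a chain of the GM-CSF receptor, rose by 0.87 ± 0.25 and 1.30 ± 0.26. Ccl21a, a ligand of Ccr7, fell in Δchat (-2.44 ± 0.67; edgeR adjusted p = 0.0268) and did not pass in WT (-1.56 ± 0.63; edgeR adjusted p = 0.0793).

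Whether the strain effect differed between tissues was tested as the effect in ileum minus that in colon. By edgeR 0 of the 10 genes passed, where 0.0592% of 15198 genes did, with 2 of 10 at an unadjusted p under 0.05 (7.72% of all genes), both below 0 (3.3% of all genes). DESeq2 called 1 of 10, Flt3, where it called 0.25% of all genes. The difference was -0.65 ± 0.16 for Flt3 (edgeR adjusted p = 0.446; DESeq2 adjusted p = 0.0348) and -1.32 ± 0.37 for Cd209a (edgeR adjusted p = 0.510). For the remaining 8 genes it lay between -0.51 and 0.35. Of the 14 genes of the cDC1 list 13 lay below 0 and 1 above, where 52.9% of all genes lay above 0, with a median of -0.37 against 0.021 for all genes, and 0 passed. Markers of other cells moved with it, since all 10 macrophage genes (median -0.50) and all 8 epithelial genes (median -2.50) lay below 0, while all 9 B cell genes lay above it (median 1.02). Without colon Δchat replicate 3 the epithelial median was -0.48, and the cDC1 list still had 13 genes below 0 (median -0.44). The part of these cells in the cDC1 values was not tested.

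Likeness between genes was measured as Pearson's r of log2 CPM over the 16 libraries after the mean of each group was subtracted, among 12325 genes of at least 2 CPM. Gene models, pseudogenes and segments of immunoglobulin and T cell receptor genes were left out of these, so they could not appear among the most alike. The 16 libraries come from 8 mice and share the depth and the cell mixture of each library, so r is a description. For Ccr7 the most alike were Pax5 (r = 0.994), the master factor of B cells, the class II genes H2-Ob (0.994) and H2-Eb2 (0.989), and Rhobtb2 (0.989). Pax5 had 318, 58.8, 52.7 and 277 CPM in ileum Δchat, 115, 82.7, 178 and 83.2 CPM in ileum WT, 462, 448, 231 and 298 CPM in colon Δchat and 615, 396, 345 and 560.3 CPM in colon WT. The libraries high and low for Ccr7 were thus those high and low for Pax5, within ileum Δchat too.

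The anchors Xcr1, Cd209a and Siglech had lower values. For Xcr1 they were Adamts14 (0.898), Dhdh (0.882), Glud1 (0.881) and Mdfic (0.868). For Cd209a they were Tbx1 (0.899), Slc45a3 (0.840), Gdf10 (0.819) and Efcc1 (0.814), and for Siglech Gon7 (0.832), Zfp11 (0.828), Nudt18 (0.794) and Card19 (0.751). Among the members, Clec9a had an r of 0.78 with Batf3, 0.70 with Flt3 and 0.67 with Xcr1, and Xcr1 had 0.55 with Batf3. With the macrophage gene C1qa, r was 0.79 for Batf3, 0.70 for Clec9a, 0.67 for Clec10a, 0.60 for Xcr1 and 0.12 for Cd209a. It was 0.45 for Irf8 and 0.42 for Flt3. Flt3 had higher values with the endothelial genes Esam (0.65) and Pecam1 (0.60). Irf8 had -0.85 with the epithelial gene Krt8 and -0.66 with the stromal gene Col1a1. Clec10a had 0.69 with Csf1r, another macrophage gene, and 0.38 with Cd209a. Zbtb46, added after its values were seen, was most like Slc9a3r2 (0.978), Mapk12 (0.959), Notch4 (0.955) and Mcam (0.951), and had 0.92 with Esam and 0.90 with Pecam1, both adhesion molecules of endothelium. Esam is on the cDC2 list too, and the part of endothelium in its values there was not tested. Pecam1 had 666, 922, 1125 and 730.4 CPM in ileum Δchat, 907, 709.6, 739 and 879 CPM in ileum WT, 703, 585, 640.3 and 867 CPM in colon Δchat and 532, 495, 693 and 570.5 CPM in colon WT. As for Zbtb46, the highest values lay in ileum and the lowest in colon WT. The part of B cells in Ccr7 and of endothelium in Zbtb46 and Flt3 was not tested. Nor was that of macrophages in Batf3, Clec9a, Xcr1, Clec10a, Irf8 and Flt3, or of epithelium and stroma in Irf8.

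**Figure D5:**
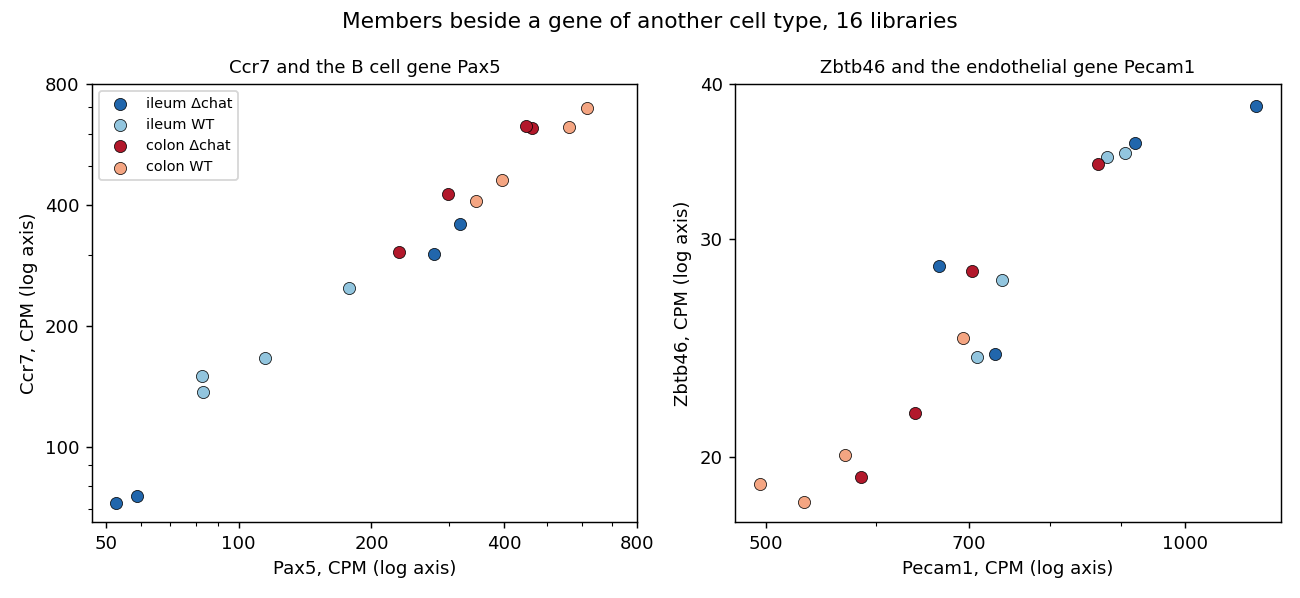
CPM of Ccr7 against the B cell gene Pax5, and of Zbtb46 against the endothelial gene Pecam1, on log axes, with 1 point per library coloured by group. The 16 points of Ccr7 lie near 1 rising line, with 2 ileum Δchat libraries at its lower end, and those of Zbtb46 scatter more.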

How the data were processed

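The authors deposited estimated counts per gene and library, made with cutadapt 5.0 and Salmon 1.4.0 on GRCm39 per the submitters' processing notes. How transcripts were summed to genes is not given in the sources used here. In each library 34.8 to 40.7% of values carried decimals, and all were rounded. The 542 identifiers without a symbol held 0.0853 to 0.105% of counts. Cells had been isolated on a 40% and 80% Percoll gradient. No 2 libraries of a group were copies.

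In R 4.3.3, edgeR 4.0.16 was used with filterByExpr, TMM scaling, a robust quasi-likelihood fit and 2-sided tests, called at an adjusted p under 0.05. All 10 genes passed the filter on low counts in every fit. The strains were compared in ileum and in colon in a fit of 8 libraries each, and the tissues and the difference of the strain effect in 1 fit of 16. The ± after a log2 fold change is an SE. It was worked out as the absolute log2 fold change over the square root of the F statistic of the edgeR test. Log2 CPM for likeness have a prior count of 2. The alternatives were RLE scaling, no filter, a filter of 1 CPM in 4 libraries, DESeq2 1.42.0, removal of 390 immunoglobulin genes, a replicate block, 1 fit over 16 libraries, and each library left out.

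Ileum and colon libraries of the same strain and number were taken as 1 mouse, from the 4 mice per group of the design and the shared library names. Their deviations from the group means correlated between -0.18 and 0.274 in Δchat (mean 0.127) and between -0.0571 and 0.0742 in WT (mean -0.018). For libraries of different mice, r lay between -0.302 and 0.22 in Δchat (mean -0.046) and between -0.159 and 0.182 in WT (mean 0.0058). These ranges overlapped, so the values do not settle the pairing given by the labels. Members, lists, tests and promoter motifs were chosen with earlier results of these data known. Named genes are the 10 members, up to 4 called genes a list by smallest p or, with none called, the 2 most abundant, the 3 most abundant markers of other cells, and the 4 most alike genes of Xcr1, Cd209a, Ccr7 and Siglech. A marker that this rule takes in is not reported here. The fits were tested on simulated counts.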

Additional observations from a re-analysis of the deposited data

Results flagged for a closer look

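Of 68 groups of 4 libraries examined for a library far from the other 3, 2 had one, and chance gives about 1 in 20. Xcr1 in ileum Δchat replicate 2 was 15.5 CPM, against 8.57 to 9.51 CPM in the other 3 libraries of its group. The summed level of the 8 epithelial markers in colon Δchat replicate 3 was 2682 CPM, against a lowest of 196.6 CPM in its group.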

How the results depend on the processing

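With another setting than the main one, genes called in ileum between strains (3) were 0 with RLE, 5 with no filter, 0 with a filter of 1 CPM, 358 with DESeq2, 0 with a replicate block and 42 in 1 fit over 16 libraries. In colon (1) they were 303 with DESeq2, 0 with the block and 10 in 1 fit. The replicate number does not pair mice across strains. For the difference of the strain effect (9) they were 56 with DESeq2 and 3 with the block. Members called were 2 in colon and 1 for the difference with DESeq2, and list genes called were 4 in ileum and 5 in colon with DESeq2 and 1 in colon in 1 fit. The cause was not tested. With the replicate block the ileum strain value was -0.0035 for Xcr1, -0.0039 for Clec10a and -0.14 for Ccr7, each of opposite sign. The difference for Irf8 (0.0087) was -0.024 with RLE, -0.0057 with no filter, -0.036 with a filter of 1 CPM, -0.025 with DESeq2 and -0.0085 with the block. Between tissues the block for the mouse changed the calls of Batf3 and Ccr7 in Δchat and of Zbtb46 in WT, given above, and no other member's.

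With each library left out, genes called between strains were 0 to 247 in ileum and 0 to 3 in colon, 1315 to 2177 between tissues in Δchat, 2606 to 4160 in WT and 0 to 35 for the difference. Members called between tissues were 2 to 3 in Δchat and 3 to 6 in WT, and list genes 15 to 21 and 30 to 38. List genes called were 0 to 1 between strains in ileum and 0 to 2 for the difference. Some values near 0 changed sign. In ileum between strains the ranges were -0.083 to 0.15 for Zbtb46, -0.20 to 0.12 for Xcr1, -0.46 to 0.055 for Clec9a, -0.11 to 0.64 for Batf3, -0.040 to 0.19 for Irf8, -0.23 to 0.19 for Clec10a and -0.24 to 0.45 for Ccr7, and in colon -0.27 to 0.026 for Ccr7. Between tissues they were -0.42 to 0.11 for Clec9a and -0.22 to 0.015 for Irf8 in Δchat and -0.13 to 0.025 for Irf8 in WT. For the difference they were -0.77 to 0.0053 for Batf3, -0.15 to 0.078 for Irf8, -0.11 to 0.61 for Ccr7 and -0.52 to 0.11 for Siglech. With 4 libraries a group and as few as 31 counts for Siglech, depth and number limit these values. The p-values measure the spread between libraries of 1 experiment. The main tests between tissues and of the difference held no term for the mouse, so they treated the 16 libraries as independent.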
